A study of Mus musculus with 14 samples.

Results

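Red blood cell genes were followed across P2 (postnatal day 2) mouse brains as a measure of how much red cell RNA each dissected brain carried. The genes were found by symbol in the annotation that accompanies the counts: Hba-a1, Hba-a2, Hbb-bs, Hbb-bt, Alas2 and Slc4a1, which make up 6 of the 7 genes listed and 6 of the 17927 genes in the data. The other listed gene, Ahsp, was not analysed here. RNA-SEQ, which counts sequenced fragments of RNA per gene, was done on 7 WT and 7 Capn15 KO brains from 6 litters. The column names of the counts carry a letter from A to F. It was read as the litter because the paper names 6 litters, though the column names do not explain it. The brains were whole, untreated and frozen at dissection, the lines were made in C57BL/6J mice, and the KO lacks Capn15, a calpain protease. The methods describe a Capn15(lacZ-Neo) line and a floxed line and do not say which gave these brains. Of the WT brains 2 were female and 5 male, and of the KO brains 4 were female and 3 male. Sex was read from a separate F or M in the column names. By the letters A to F, brains that share a replicate number, 1 WT and 1 KO, were littermates, and litter B gave 2 such pairs.

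Red blood cells carry haemoglobin, a tetramer of alpha and beta globin chains that each hold a haem. Mature red cells have lost their nucleus, but reticulocytes, the young cells that have just entered the blood, still hold globin mRNA, and they are plentiful in newborn mice. Alas2 encodes the erythroid form of the first enzyme of haem synthesis. Slc4a1 encodes band 3, the anion exchanger of the red cell membrane, which also anchors the membrane skeleton. Globin mRNA in whole brain is usually read as blood held in the vessels, although some neurons are known to make a little of it, and no perfusion was described for these brains. In bulk RNA, fewer cells of a type and less RNA per cell cannot be told apart.

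The libraries held between 37620954 and 70910163 counts, and 3 counts in the smallest library correspond to 0.0797 CPM (counts per 1000000 counts of the library, scaled with TMM factors), the smallest level this depth can show there. Capn15 itself lay between 24.98 and 27.3 CPM in WT replicates 1 to 6 and between 12.2 and 14.5 CPM in KO replicates 1 to 6. The replicate 7 libraries, both of litter F, read 18.7 CPM where the label says WT and 20.2 CPM where it says KO, which goes against their labels, so that the test of the 6 genes between KO and WT is given with and without litter F. The labels give neurons as the cell type. Neuron markers were detected (10 of 10, Tubb3 at a mean of 2548 CPM), but so were markers of glia (10 of 10), endothelium (12 of 12) and choroid plexus (11 of 11), as in whole brain.

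The genes lie on 3 chromosomes (GRCm38, GENCODE M21 annotation). Hba-a1 (ENSMUSG00000069919) is at chr11:32283511-32284465 and Hba-a2 (ENSMUSG00000069917) at chr11:32296489-32297298, both on the plus strand. Slc4a1 (ENSMUSG00000006574) is far from them on the same chromosome, at chr11:102348824-102366203 on the minus strand. Hbb-bs (ENSMUSG00000052305, chr7:103826534-103828096) and Hbb-bt (ENSMUSG00000073940, chr7:103812524-103813996) are neighbours on the minus strand. Alas2 (ENSMUSG00000025270) is on chromosome X, at chrX:150547375-150570638 on the plus strand. Each globin transcript has 3 exons, that of Alas2 has 11 and that of Slc4a1 has 20. The exons of Apex2, on the other strand, cover 311 of the 2403 exonic bases of Alas2. The strand setting of the counting was not given in the sources used here, so reads from that stretch cannot be assigned with certainty, and Apex2 itself varied only 1.36-fold across libraries.

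The globin genes come in near-identical pairs, and the coding sequences show how little tells them apart. Over 426 coding bases before the stop codon Hba-a1 and Hba-a2 differ at 1 (C381T, counted from the A of the start codon), and over 441 bases Hbb-bs and Hbb-bt also differ at 1 (C417T). Both changes fall on the third base of a codon. The stretches that hold them are shown with the differing base in capitals, bases 292 to 381 for the alpha globins and 328 to 417 for the beta globins, 5′ to 3′ from the GENCODE transcripts.
Hba-a1: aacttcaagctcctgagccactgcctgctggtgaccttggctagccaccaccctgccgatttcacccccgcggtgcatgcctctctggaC
Hba-a2: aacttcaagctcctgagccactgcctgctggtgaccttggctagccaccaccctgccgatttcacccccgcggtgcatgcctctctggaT
Hbb-bs: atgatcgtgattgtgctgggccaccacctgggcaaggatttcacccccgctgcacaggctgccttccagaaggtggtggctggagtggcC
Hbb-bt: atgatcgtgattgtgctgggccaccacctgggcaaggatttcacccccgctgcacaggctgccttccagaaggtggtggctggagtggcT
Of all stretches of 100 bases in the main transcript, 56.5% for Hba-a1 and 74.5% for Hba-a2 also occurred in the other alpha globin, and 62.6% for Hbb-bs and 54.8% for Hbb-bt in the other beta globin. How reads that match both copies were counted was not given in the sources used here. The split of counts within a pair is therefore uncertain, and so is the level of the globins against other genes. No stretch of 100 bases of Alas2 or Slc4a1 was shared with another gene.

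The members were measured on different scales of abundance. Per kilobase of annotated exon, Hbb-bs stood highest at a mean of 121 CPM per kb over the 14 libraries. Hba-a1 followed at 33.5, then Hba-a2 at 21.1 and Hbb-bt at 20.2 CPM per kb. Within the library spread the last pair cannot be ordered, since the SD over WT brains was 12.9 CPM per kb for Hba-a2 and 13.96 for Hbb-bt. Alas2 was at 2.24 and Slc4a1 at 0.233 CPM per kb. The 4 globin genes together took between 0.00299% of all counts (1368 of 45814195 in WT replicate 5, 95% Wilson interval 0.00283% to 0.00315%) and 0.0313% (12490 of 39937477 in WT replicate 2, 0.0307% to 0.0318%). Such intervals cover counting error only, and not how reads that match both globin copies were counted.

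The first question was whether red cell RNA differed between Capn15 KO and WT brains. It was not found to differ: none of the 6 genes passed the test and the fold differences were small. The WT and KO libraries overlapped for all 6 genes. That says little, since over all genes they were apart for only 1 of 17927 (0.00558%). The members' levels were nonetheless far from even. Over the 14 brains the highest library exceeded the lowest by 8.69-fold (Hba-a2) to 16.7-fold (Slc4a1).

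Among the alpha globins, Hba-a1 ranged in WT from 5.66 CPM through a median of 30.3 to 54.6 CPM, and in KO from 6.29 through 24.7 to 43.2 CPM. The means were 28.1 ± 16.1 CPM in WT and 26.3 ± 12.4 CPM in KO (SD, n = 7 each). Hba-a2 ranged in WT from 3.53 through 17.2 to 28.2 CPM and in KO from 3.24 through 12.5 to 22.1 CPM. The lowest libraries of both genes were the litter D brains and the highest was WT replicate 2. Among the beta globins, Hbb-bs ranged in WT from 18.4 through 107 to 201 CPM and in KO from 21.5 through 87.6 to 140 CPM. Hbb-bt ranged in WT from 2.22 through 17.8 to 28.0 CPM and in KO from 3.26 through 12.3 to 25.04 CPM. Again WT replicate 5 was lowest and WT replicate 2 highest.

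Alas2, the haem enzyme, ranged in WT from 1.22 through 6.08 to 10.5 CPM and in KO from 1.12 through 4.91 to 8.75 CPM. Slc4a1, the membrane anion exchanger, ranged in WT from 0.152 through 1.24 to 2.55 CPM and in KO from 0.324 through 1.01 to 1.90 CPM. Slc4a1 rests on few reads: its lowest library, WT replicate 5, held 7 counts and its highest, WT replicate 2, held 102. The highest library exceeded the lowest by 8.69-fold for Hba-a2, 9.41-fold for Alas2, 9.65-fold for Hba-a1, 10.9-fold for Hbb-bs, 12.6-fold for Hbb-bt and 16.7-fold for Slc4a1.

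**Figure D1:**
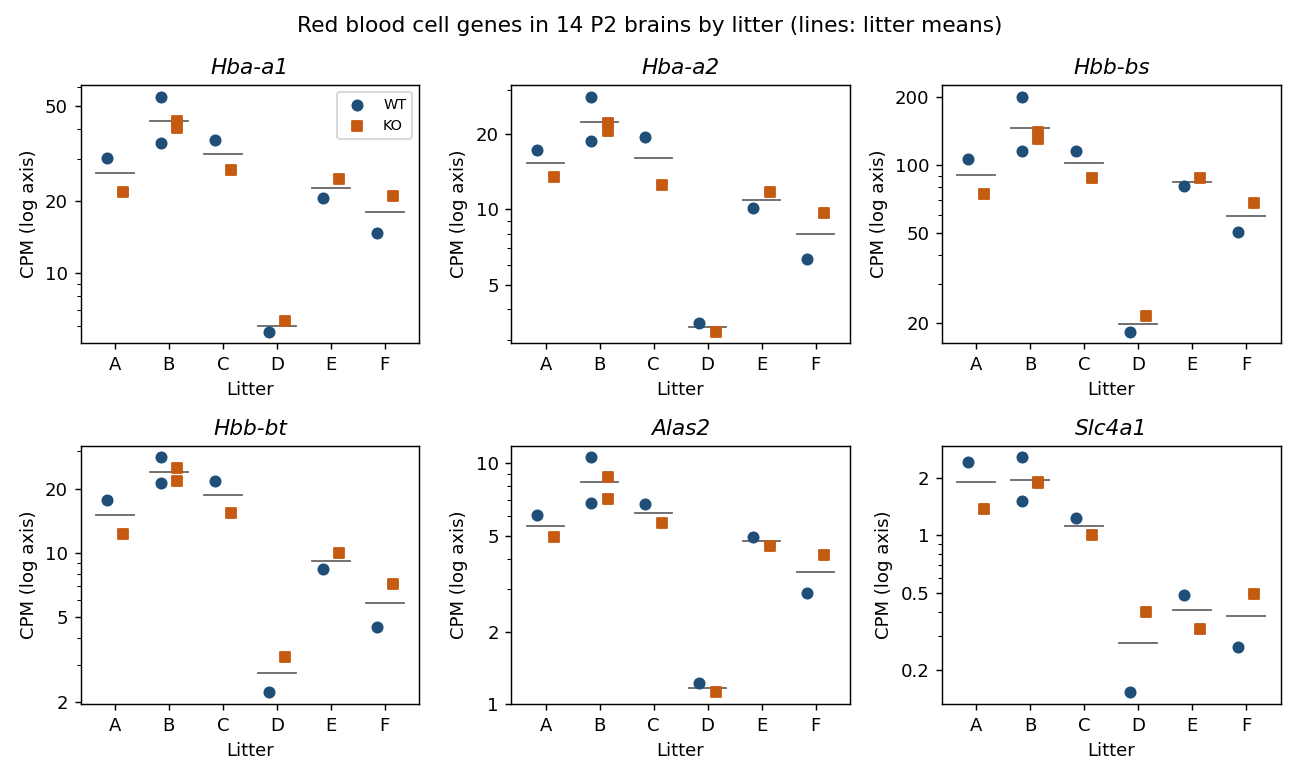
CPM of each of the 6 genes (log axis) in each brain, with the litters along the horizontal axis, WT as circles, KO as squares and the litter mean as a line. In all 6 panels the litter D mean is the lowest and WT replicate 2, in litter B, is the highest library, while WT and KO symbols overlap.

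When genotype was tested in edgeR (quasi-likelihood test, adjusted for litter and sex), 0 of the 6 genes were called between KO and WT at an FDR (Benjamini-Hochberg adjusted p over all genes) under 0.05. Over all genes 1 of 17927 was called (0.00558%), and 922 had an unadjusted p under 0.05 (5.14%). None of the 6 genes had an unadjusted p under 0.05 by this test. The paper, with sex and litter as variables, reported more genes at the same FDR cutoff, Capn15 among them. In the fit made here Capn15 was not called, with a log2 fold change of -0.81 and an FDR of 0.0747. The absence of a call is therefore a weak guide for the 6 genes. The log2 fold change of KO against WT was -0.05 ± 0.13 (SE) for Hba-a1, -0.15 ± 0.13 for Hba-a2, -0.07 ± 0.13 for Hbb-bs and -0.04 ± 0.14 for Hbb-bt. For Alas2 it was -0.08 ± 0.13 and for Slc4a1 it was 0.02 ± 0.24. The FDR was 0.999964 for each gene. The 95% intervals set what could have been missed: for Hbb-bs they ran from 0.783-fold to 1.15-fold of WT, for Alas2 from 0.782-fold to 1.14-fold and for Slc4a1 from 0.714-fold to 1.44-fold. The other intervals lay between 0.739-fold, for Hba-a2, and 1.204-fold, for Hbb-bt. These intervals do not cover the choice of brains: without WT replicate 4 or without KO replicate 4, both of litter C, the log2 fold change was 0.62 for Slc4a1 and 0.36 for Hbb-bt, above their intervals, with neither gene called.

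Tests of the single genes that use no model gave the same calls. The exact two-sided permutation test over all regroupings of the 14 brains into 7 and 7 gave p between 0.881 for Alas2 and 0.98 for Hba-a1, where the smallest p possible is 0.000583. These regroupings ignore litter, which held most of the spread of these genes, so only a large genotype difference could show in that test. The exact two-sided sign-flip test over the 7 same-litter pairs gave p between 0.531 for Alas2 and 0.922 for Hba-a1, where the smallest possible is 0.0156. In every pair except pair 7 the 2 brains also differed in sex, so these pair differences mix sex with genotype. The KO brain of a pair was the lower one in 3 of 7 pairs for Hba-a1, Hbb-bs and Hbb-bt, in 4 of 7 for Hba-a2 and Slc4a1, and in 5 of 7 for Alas2. The 6 genes tended to move as a set within a pair: all 6 were lower in the KO brain of pairs 1, 2 and 4, and all 6 were higher in the KO brain of pairs 3 and 7. In pairs 5 and 6, 2 genes were lower and 4 higher. Pair 7 is litter F, whose Capn15 levels go against the labels, and without it the log2 fold changes lay between -0.28 and -0.11 with 0 of 6 genes called.

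**Figure D2:**
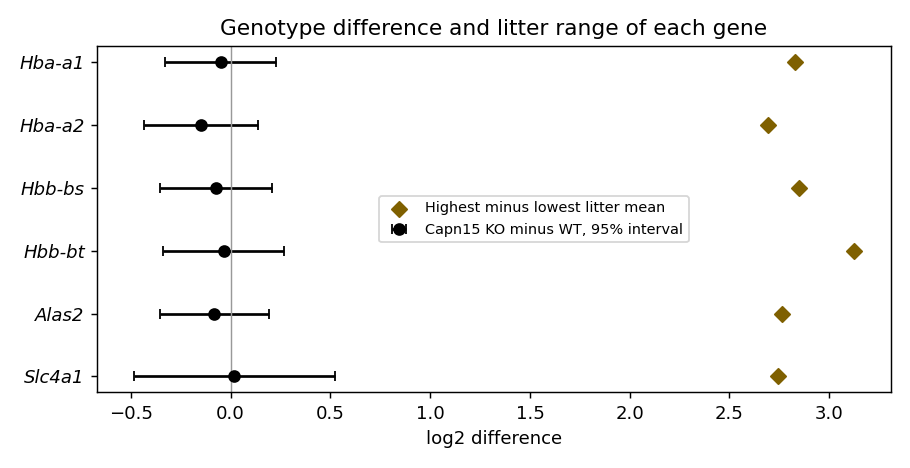
log2 difference between KO and WT for each gene (points, with 95% intervals from the edgeR model) and the range of the 6 litter means of log2 CPM (diamonds). All genotype intervals include 0, while the litter ranges lie between 2.69 and 3.13.

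The second question was whether litters differed. All 6 genes differed between litters, and in the same order at the extremes: litter D was the lowest and litter B the highest for each of them. For Hbb-bs the litter means were 90.6 CPM in A, 147 in B, 102 in C, 19.9 in D, 84.5 in E and 59.5 in F. For Hba-a1 they were 26.0 CPM in A, 43.2 in B, 31.5 in C, 5.98 in D, 22.6 in E and 17.9 in F. Both litter D brains were low, 1 WT and 1 KO, 1 female and 1 male, with Hbb-bs at 18.4 and 21.5 CPM. Their libraries were not shallow, with 45814195 and 53026797 counts. For the globins and Alas2 both litter D brains lay below the other 12, whereas for Slc4a1 KO replicate 5 lay above 2 brains of other litters.

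In the same edgeR fit all 6 genes were called between litters. The FDR lay between 1.7e-05 for Hbb-bt and 1.3e-04 for Slc4a1. Litter differences were common in these brains, since 5301 of 17927 genes were called (29.6%), so the call alone says little about the members. The size set them apart as a description: the litter means spanned 2.69 log2 units for Hba-a2 (6.47-fold), 2.75 for Slc4a1, 2.76 for Alas2, 2.83 for Hba-a1, 2.85 for Hbb-bs and 3.13 for Hbb-bt (8.73-fold). The median gene spanned 0.28 log2 units and the 95th percentile of all genes was 0.91. Litter D lowest with litter B highest was the pattern of 6 of the 6 genes and of 6.9% of all genes.

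Differences between litters accounted for most of the members' spread over brains. The share of the variance of log2 CPM that lay between litters was between 90.6% for Slc4a1 and 95.9% for Alas2, against a median of 60.7% over all genes. Brains of 1 litter still differed, by at most 1.75-fold for Hbb-bs (litter B), 1.56-fold for Hba-a1 (litter B) and 1.54-fold for Alas2 (litter B). For Slc4a1 the largest difference within a litter was 2.61-fold, in litter D. Litter B held 4 brains and each other litter 2. The labels give all 14 brains the same batch name, and what a litter's brains shared in handling cannot be told apart from the litter. Without litter D all 6 genes were still called between the remaining 5 litters. Without litters B and D, both left out after their values had been seen, only Hbb-bt (FDR 0.00613) and Slc4a1 (FDR 0.00379) were called by the quasi-likelihood test, while 954 genes were called in all (5.32%).

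Sex was in the model, because it was not balanced between genotypes. None of the 6 genes was called between male and female brains by edgeR's quasi-likelihood test, and none had an unadjusted p under 0.05 in it, against 12 of 17927 genes (0.0669%). The largest log2 difference of male minus female was 0.34 ± 0.25 (SE) for Slc4a1, and that of Hbb-bs was 0.08 ± 0.14.

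The members rose and fell together over the 14 brains. For the 10 pairs that leave out Slc4a1, Pearson's r of log2 CPM lay between 0.958 and 0.996 and Spearman's rho between 0.960 and 0.987. For the 5 pairs with Slc4a1, r lay between 0.816 and 0.912 and rho between 0.846 and 0.886. Over all 15 pairs the permutation p of r, adjusted over the pairs, was at most 0.00013, and that of rho at most 0.00036. The smallest unadjusted p that 100000 permutations can give is 1e-05. Brains of a litter are not independent, so these p-values are too small. Leaving out the 2 brains farthest from the median of the first gene left r between 0.806 and 0.986. With litter means taken out, r was between 0.707 and 0.969 for the 10 pairs and between 0.527 and 0.813 for those with Slc4a1. The copies of a globin pair share sequence, so their correlation may come partly from reads that match both, depending on how those were counted. This does not apply to Alas2 against Hbb-bs (r = 0.992, chromosomes X and 7).

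The promoters of these co-varying genes hold short motifs known from erythroid promoters, shown for 1 gene of each chromosome. The windows are the 250 bases before the RefSeq start (GRCm38.p6), 5′ to 3′ on the strand of the gene, with 4 motifs in capitals wherever they occur on either strand. CACCC is the core of sites for KLF factors and GATAA that of sites for GATA factors, and the others are the CCAAT box and, near the start, the motif ATATAA.
Hba-a2 (chr11:32296242-32296491, plus strand): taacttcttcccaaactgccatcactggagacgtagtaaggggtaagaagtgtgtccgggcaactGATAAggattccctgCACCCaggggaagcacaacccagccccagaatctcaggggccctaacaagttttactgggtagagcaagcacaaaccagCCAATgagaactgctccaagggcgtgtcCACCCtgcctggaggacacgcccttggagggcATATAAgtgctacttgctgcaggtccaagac
Hbb-bs (chr7:103827929-103828178, minus strand): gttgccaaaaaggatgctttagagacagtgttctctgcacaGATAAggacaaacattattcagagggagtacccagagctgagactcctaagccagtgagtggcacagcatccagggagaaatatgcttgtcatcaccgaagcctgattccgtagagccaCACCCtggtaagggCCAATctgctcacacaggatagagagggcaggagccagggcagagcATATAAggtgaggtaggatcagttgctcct
Alas2 (chrX:150547167-150547416, plus strand): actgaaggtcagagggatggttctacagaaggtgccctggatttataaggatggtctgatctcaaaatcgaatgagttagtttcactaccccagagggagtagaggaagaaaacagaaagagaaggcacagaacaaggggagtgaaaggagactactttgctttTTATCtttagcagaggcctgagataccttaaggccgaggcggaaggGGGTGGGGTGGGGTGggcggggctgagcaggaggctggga
RefSeq windows were matched for 5 of the 6 genes, all but Slc4a1. The windows of Hba-a1 and Hba-a2 are the same over 247 of 247 bases once shifted by 3. All 4 globin windows held each of the 4 motifs, as did 0.466% of 32851 windows of all genes. The Alas2 window held CACCC 3 times and GATAA once, all on the other strand, and neither CCAAT nor ATATAA. Singly the motifs are common, CACCC in 52.0% of all windows, CCAAT in 33.9%, GATAA in 22.6% and ATATAA in 9.10%. None of the matches overlapped another motif. A match is a description of the letters and not of a bound site.

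Although all 6 genes followed the same litters, they did not keep fixed proportions. The alpha globins kept close to the beta globins, with between 34.2 and 44.6 alpha counts per 100 beta counts in every brain. Alas2 also kept close to Hbb-bs, with 5.18 to 6.64 counts per 100 Hbb-bs counts, a span of 1.28-fold while Hbb-bs itself spanned 10.9-fold. Neither ratio stood apart by genotype: Alas2 per 100 Hbb-bs was 5.88 ± 0.42 in WT and 5.87 ± 0.59 in KO (SD, n = 7 each).

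Hbb-bt and Slc4a1 varied against Hbb-bs. Hbb-bt made up between 8.15% and 10.3% of the beta globin counts in the 4 brains of litters E and F, and between 12.2% and 15.9% in the 8 brains of litters A, B and C. The highest upper 95% Wilson bound in E and F was 11.01% and the lowest lower bound in A, B and C was 11.6%, so that these libraries did not overlap in counting error. Of the litter D brains, WT replicate 5 lay between these groups at 10.8%, and KO replicate 5 lay within the range of A, B and C at 13.2%. Slc4a1 per 100 Hbb-bs counts was 2.05 on average in litter A, 1.34 in B, 1.11 in C and 1.34 in D, but 0.486 in E and 0.622 in F. The litter D value is the mean of 0.829 and 1.85, which rest on 7 and 21 Slc4a1 counts. The brains of E and F held 15 to 24 Slc4a1 counts. As a share of Slc4a1 and Hbb-bs counts, the 95% Wilson bounds overlapped. The highest upper bound in E and F was 1.127% and the lowest lower bound in A, B and C was 0.804%. These groupings of litters were seen in the data and were not tested. The share of Hba-a2 among the alpha globins moved less: 30.04% to 33.0% in E and F and 31.7% to 38.1% in A, B and C, which overlap.

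**Figure D3:**
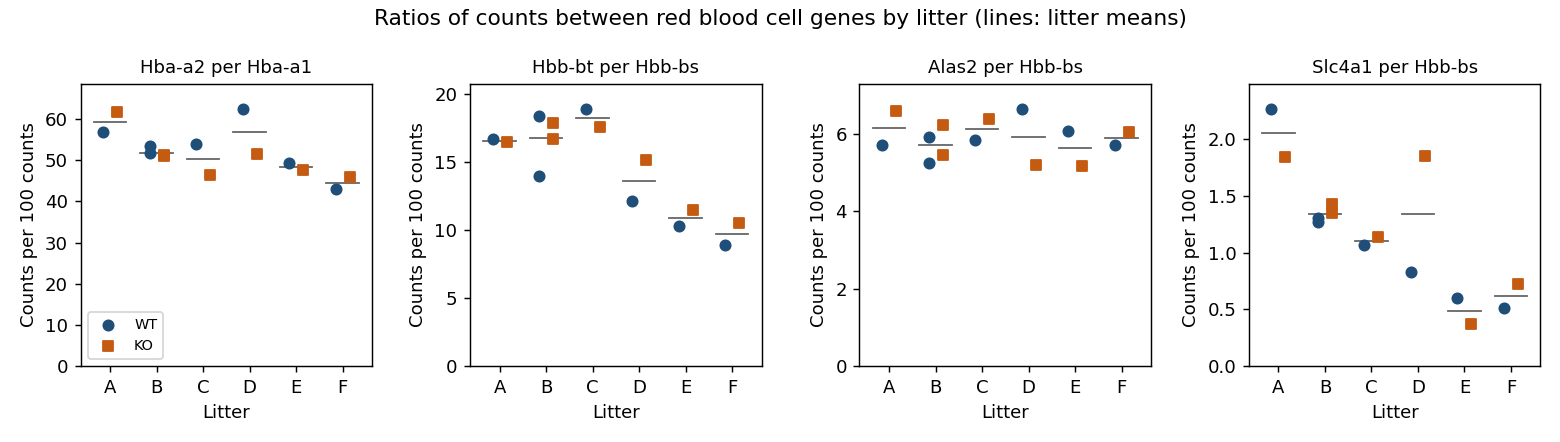
Counts of Hba-a2 per 100 of Hba-a1, and of Hbb-bt, Alas2 and Slc4a1 per 100 of Hbb-bs, in each brain by litter, with WT as circles, KO as squares and litter means as lines. Alas2 stays between 5.18 and 6.64, whereas Hbb-bt and Slc4a1 are lowest in litters E and F.

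Other red cell genes were read from lists of known roles. Of the red cell membrane and skeleton, 13 of 19 listed genes were tested, 9 were called between litters and 0 by genotype, against 29.6% and 0.00558% of all genes. Their median litter range was 0.37 log2 units against 0.28 for all genes. Membrane skeleton genes that brain cells also use varied far less than the haemoglobin genes: Sptb, Ank1, Epb41, Add2 and Dmtn lay at means between 37.1 and 424 CPM with litter ranges between 0.15 and 0.62 log2 units, and all of them but Ank1 were called.

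Of the haem synthesis and iron uptake genes 18 of 18 were tested, and 2 were called between litters, a smaller share than the 29.6% of all genes, among them Fech (ferrochelatase, the last enzyme, litter FDR 0.036). The widest litter range in this list was 0.39 log2 units. Alas1, the form of the first enzyme that all cells use, lay between 49.0 and 52.7 CPM in its litter means (litter FDR 0.43), while Alas2 ran from 1.17 to 8.30 CPM. Of the erythroid transcription factors and the erythropoietin receptor 7 of 11 were tested and 2 called, Tal1 and Ldb1, a share near that of all genes. Ldb1 lay at 99.8 CPM in litter A and 133 in B, and Tal1 at 13.3 and 17.8 CPM. For neither was litter D the lowest. Gata1 and Klf1, which drive red cell formation, were not analysed here.

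Of 15 late erythroid and reticulocyte genes 9 were tested and 5 called between litters, against 29.6% of all genes. Tent5c, a poly(A) polymerase abundant in reticulocytes, was lowest in litter D at 2.74 CPM and highest in B at 6.15 CPM (litter FDR 0.000181). Like Slc4a1 it was low in E and F (3.36 and 3.43 CPM) and high in A and C (5.41 and 5.38 CPM). Slc14a1, a urea transporter that astrocytes also make, went the other way, with 4.69 CPM in B and 10.3 in F. Car2, Bnip3l and Mkrn1 were called with litter ranges of at most 0.68 log2 units. Of the other globins Hbq1a and Hbq1b were tested and not called, at means of 0.38 and 0.41 CPM. The embryonic globins Hbb-y, Hbb-bh1 and Hba-x were not analysed here.

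Most genes listed for other blood cells were not among those tested. Among neutrophil genes 3 of 12 were tested, and Mmp9 was called between litters, at 7.40 CPM in B and 3.49 in D. S100a8 and S100a9, which neutrophils make in large amounts, were at means of 0.359 and 0.440 CPM and not called. Of the platelet genes 4 of 11 were tested, and Pf4, which brain macrophages also express, was called with 5.51 CPM in B and 2.94 in D. Itga2b was called too, with its lowest value in B. Of 13 lymphocyte and monocyte genes only Cd79b was tested, at a mean of 0.522 CPM.

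**Figure D4:**
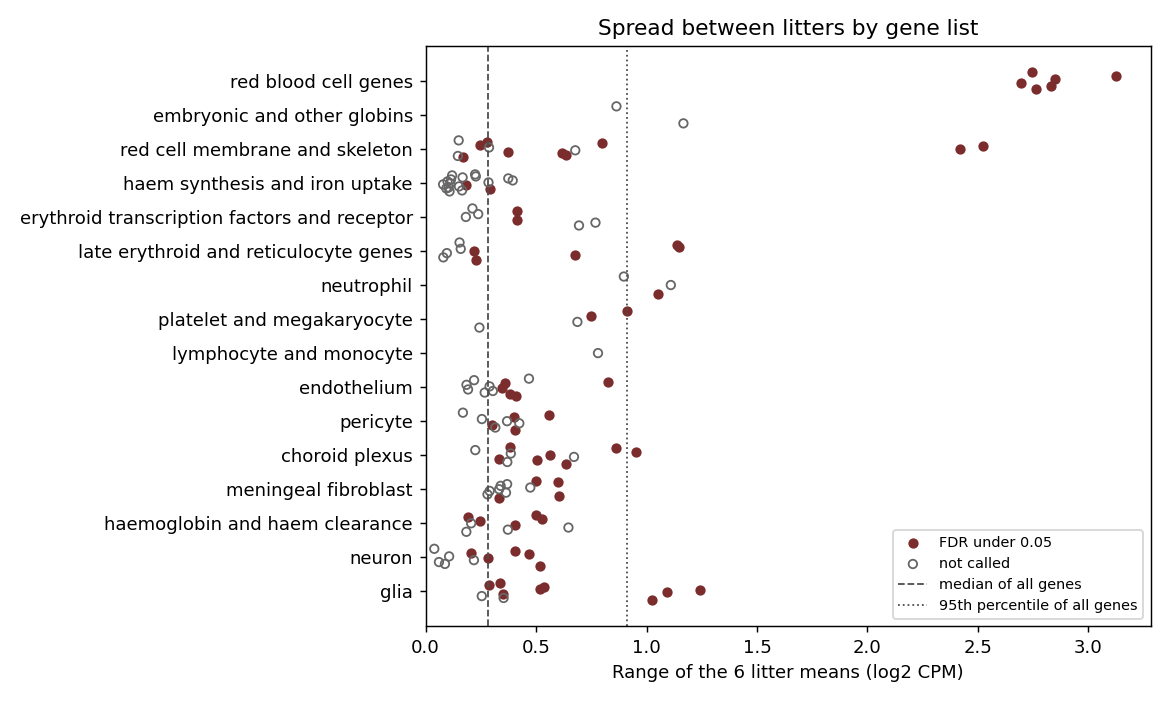
Range of the 6 litter means of log2 CPM for every tested gene of 16 lists, with filled points for genes called between litters and vertical lines for the median and the 95th percentile of all genes. The 6 red blood cell genes lie between 2.69 and 3.13, to the right of every gene of the other lists.

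Markers of the vessel wall and of brain cells had smaller litter ranges than the members. Of the endothelial markers 5 of 12 were called between litters, of pericyte markers 4 of 9, of choroid plexus 7 of 11, of meningeal fibroblasts 4 of 11, of neurons 5 of 10 and of glia 8 of 10. Since 29.6% of all genes were called, the counts of endothelium, pericytes and meningeal fibroblasts lie near that background. The summed endothelial level was 361 CPM in litter A, 311 in B and 311 in D, so that B and D, the extremes for haemoglobin, were alike in it. The summed choroid plexus level was lowest in D at 795 CPM, against 931 to 1008 CPM in A, B, C and E and 930 in F. The summed meningeal fibroblast level was also lowest in D, at 463 CPM, against 529 to 583 CPM in the other litters. Glial RNA was lowest in litter B, where Mbp, a myelin protein, was at 63.6 CPM against 150 in F, and Dcx, a marker of young neurons, was highest in B at 852 CPM against 595 in F. The part of these differences in the red cell result was not tested.

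**Figure D5:**
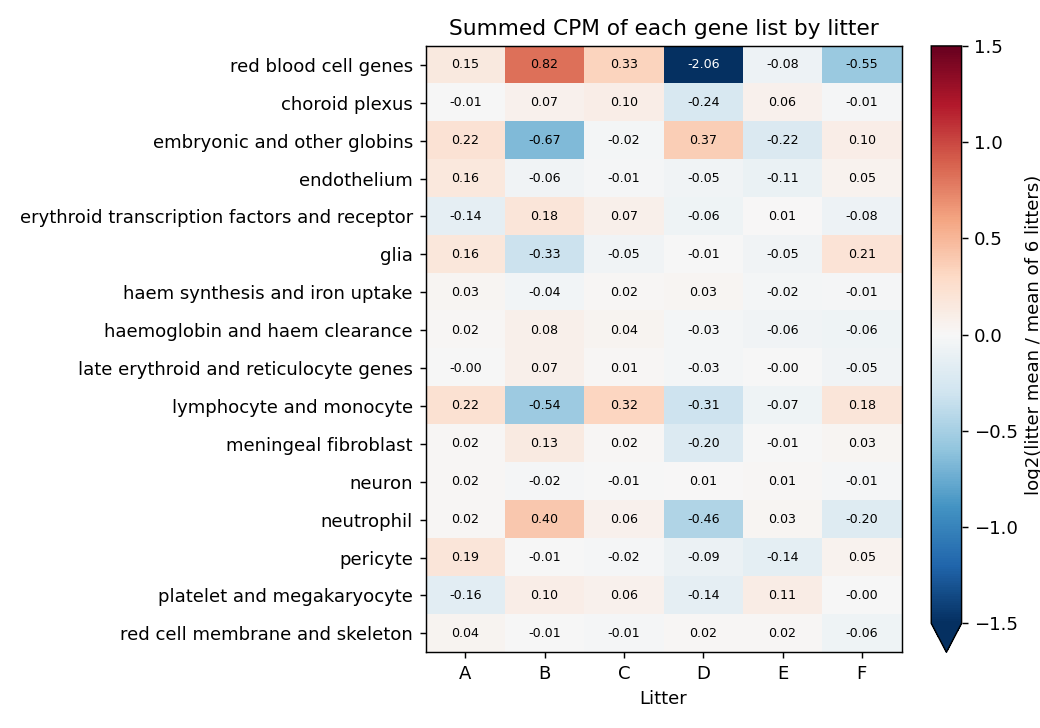
log2 of the summed CPM of each gene list in a litter over its mean of the 6 litters, with litters as columns and lists as rows (blue low, red high). The red blood cell genes run from -2.06 in litter D to 0.82 in litter B, a wider range than in any other list shown.

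Genes that take up haemoglobin and haem and store iron were read beside the members. Of 11 such genes 9 were tested, 5 were called between litters and 0 by genotype, against 29.6% and 0.00558% of all genes. Hmox1, the enzyme that opens haem, was called with 7.64 CPM in litter B and 5.25 in D (litter FDR 0.021). Ftl1, the ferritin light chain, lay at 818 CPM in B, 699 in D and 690 in F (litter FDR 0.003). Slc40a1, the iron exporter, was highest in A at 34.2 CPM and lowest in E at 24.2. Cd163, the haemoglobin scavenger receptor, lay at 4.01 CPM in B and 3.07 in D and was not called.

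Summed over their genes, 5 of 15 lists had a Spearman correlation with Hbb-bs over the 14 brains whose permutation p, adjusted over the lists, was under 0.05. As for the pairs of members, brains of a litter are not independent, so these p-values are too small. It was positive for the late erythroid genes (rho = 0.820, adjusted p = 0.00795, r = 0.661), the neutrophil genes (rho = 0.802, adjusted p = 0.00795, r = 0.783) and the erythroid transcription factors (rho = 0.758, adjusted p = 0.0132, r = 0.631). Only the neutrophil list also passed for r, with an adjusted permutation p of 0.0127. Without the 2 brains farthest from the median of Hbb-bs the values of r were 0.754, 0.651 and 0.788. With litter means removed they were -0.102, 0.0779 and 0.555. A sum follows its most abundant genes. Mmp9, at a mean of 5.75 CPM, made up most of the neutrophil sum (median 6.11 CPM), while S100a8 was highest in litter E and S100a9 in D (0.505 and 0.669 CPM). Likewise Ldb1, at a mean of 116.5 CPM, made up most of the transcription factor sum, and Prdx2, at 434 CPM, was the largest part of the late erythroid sum. The other two were negative: the glial list ran against Hbb-bs (rho = -0.719, adjusted p = 0.0186, r = -0.508 with adjusted p = 0.126), and so did the list of other globins (rho = -0.684, adjusted p = 0.0262, r = -0.517 with adjusted p = 0.126). Without the 2 farthest brains r was -0.851 and -0.400. With litter means removed it was -0.511 for the glial list but 0.562 for the other globins, which are Hbq1a and Hbq1b at the low levels given above.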

How the data were processed

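RNA was sequenced from 14 P2 brains, 7 WT and 7 Capn15 KO. After trimming and alignment to GRCm38 with STAR, the authors deposited raw counts per gene for 17927 genes, not normalized, 1 column per brain, beside a table of symbols. The paper's methods name HTSeq-count and the ScriptSeq kit, and the submitters' processing notes and labels name featureCounts and a stranded TruSeq kit, so the counter, the kit and its strand setting are uncertain. The annotation release, the filter on genes and the handling of reads that match several genes are not given in the sources used here. How these were set could change the split of reads between the globin copies and the total level of the globins.

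Genotype came from the labels. Litter and sex were read from letters in the column names, which do not spell out either. No column was left unused. The members and gene lists were chosen with earlier results of these data known. Named genes are the members, Capn15, genes of each list past a test (otherwise up to 4 with the highest mean CPM), and the 10 genes outside the globins with at least 1 CPM that varied most like the members. A few others are named by role, after their values were seen. The values of some genes past a test are not reported here.

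Counts were fitted in R 4.3.3 with edgeR 4.0.16 (quasi-likelihood test, TMM factors, genes with at least 1 count, terms for litter, sex and genotype, Benjamini-Hochberg adjustment over all genes, FDR threshold 0.05). limma 3.58.1 and DESeq2 1.42.0 gave alternatives. log2 CPM used a prior count of 2. Exact permutation, sign-flip and correlation tests were two-sided, in Python 3.11.15 with scipy 1.17.1. The p-values measure the spread between brains. Of 91 pairs of libraries, the most alike had a chi-square per gene of 4.66, and none was taken for a copy.

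Brains with the same replicate number carry the same letter in the column names. That letter was read as the litter, which is where the pairing comes from. As a check, deviations from the genotype means correlated at 0.0828 on average between same-numbered brains, between -0.40 and 0.29. Between brains of other litters they correlated at -0.0259. These correlations are weak and do not settle the pairing. Alternatives were other tests, scalings, filters and covariates, a replicate block, each library left out in turn, and litters left out.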

Additional observations from a re-analysis of the deposited data

Results flagged for a closer look

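In groups of 7 brains, the gap of the lowest or highest brain to its nearest neighbour exceeded Dixon's 95% critical value, as a part of the group's range, for 5 values in 14 groups of single genes and genotypes, where chance flags about 1 in 20 groups. For the members all flags fell on KO replicate 5, of litter D, the lowest KO brain. Its Hba-a1 was at 2.66 log2 CPM, with the next KO brain at 4.40. Its Hbb-bs was at 4.43 log2 CPM, with the next at 6.09, and its Alas2 at 0.21 log2 CPM, with the next at 2.06. These genes vary together, so the flags are not separate. In WT, replicate 5 of the same litter was the lowest for these genes too, but the gaps were within the limit. The other flags were for Capn15 in the replicate 7 libraries: the one labelled WT was the lowest of its group at 4.23 log2 CPM, next to 4.64, and the one labelled KO was the highest of its group at 4.34 log2 CPM, next to 3.87.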

How the results depend on the processing

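None of the 6 members was called between KO and WT in any of 28 alternatives, where their log2 fold changes lay between -0.29 and 0.62 and the lowest FDR was 0.702. Of 168 such fold changes 32 changed sign, none of them called. By setting, Hbb-bt was 0.0495 with the likelihood ratio test and 0.0615 with DESeq2. Slc4a1 was -0.0047 with limma-voom, -0.22 with genotype only, -0.13 without sex, -0.12 with the replicate block without sex, -0.11 without litter F, -0.17 without litter D and -0.29 without litters B and D. Leaving out 1 brain gave ranges of -0.16 to 0.18 for Hba-a1, -0.29 to 0.10 for Hba-a2, -0.17 to 0.12 for Hbb-bs, -0.15 to 0.36 for Hbb-bt, -0.19 to 0.0853 for Alas2 and -0.17 to 0.62 for Slc4a1. The cause was not tested.

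The difference of mean log2 CPM without a model had no exact permutation p below 0.396 in 108 values, of which 37 changed sign. Without litter F it was -0.0570 for Hbb-bt and -0.0932 for Slc4a1, without litter D -0.0371 and -0.15, and without litters B and D -0.0256 and -0.20. With 1 brain left out it ranged from -0.35 to 0.30 for Hba-a1, -0.37 to 0.23 for Hba-a2, -0.42 to 0.24 for Hbb-bs, -0.33 to 0.34 for Hbb-bt, -0.39 to 0.26 for Alas2 and -0.32 to 0.30 for Slc4a1.

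Over all genes, the number called between KO and WT was 1 in the reported fit, 34 with the likelihood ratio test, 17 with DESeq2, 0 with library totals only, 2 without sex, 7 without litter F, 0 without litter D, 32 without litters B and D and 0 to 7 with 1 brain left out. With the replicate block it was 0, with and without sex, and the block changed no call of a member. Between male and female brains 36 genes were called with the likelihood ratio test and 26 without litters B and D, against 12.

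All 6 members were called between litters in 22 of 23 alternatives, including each brain left out in turn (3626 to 5770 genes called over all). The exception, fewer samples by construction, was the fit without litters B and D: 954 genes and 2 members were called, with an FDR of 0.107 for Hba-a1, 0.0536 for Hba-a2, 0.0886 for Hbb-bs and 0.0566 for Alas2. The lowest r among the 15 pairs was then 0.685 (permutation p = 0.0582), and 0.738 to 0.857 with 1 brain left out. Depth limits Slc4a1 most. The alternatives without litter D, and without litters B and D, were added after the data had been seen.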

Other observations

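Outside the globins, 15221 genes had a mean of at least 1 CPM and were ranked by Pearson's r of log2 CPM with the mean standardized level of the 6 red blood cell genes over 14 brains, as a description, since brains of a litter share values. The median r was -0.0222 and 91 genes lay above 0.8. The 10 most alike were Tent5c (r = 0.915), Cdca7 (0.902), Thsd1 (0.899), Rpia (0.882), Tcf12 (0.876), Cebpg (0.871), Ghr (0.869), Cdc25a (0.866), Rsad2 (0.861) and Nmral1 (0.860). All 10 were lowest in a litter D brain and highest in WT replicate 2, as the members were. The ranking favours such genes, so this is no separate result. Their litter means spanned 1.19-fold for Rpia, a pentose phosphate enzyme, to 4.10-fold for Rsad2, an interferon-induced gene, which is less than the 6.47-fold or more of the members. With litter means removed, r lay between -0.108 for Cebpg and 0.784 for Rpia. Of the 10 genes 9 were called between litters and 0 between KO and WT (edgeR quasi-likelihood test), against 29.6% and 0.00558% of all genes. The litter calls too follow from how the genes were chosen.

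Beside the members, 9 of 11 choroid plexus genes had an unadjusted p under 0.05 between KO and WT (edgeR quasi-likelihood test). All 11 were lower in KO, with 0 called at an FDR under 0.05 in the fit made here. At that cutoff the paper listed Ttr and Enpp2 of these genes as lower in KO. Ttr, the transthyretin of the choroid plexus, was at a log2 fold change of -0.32. In all genes 5.14% had an unadjusted p under 0.05.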
